A study of Bos taurus with 31 samples.

Results

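Gene expression in the liver was compared between all cows on a high concentrate feed proportion (HC) and all cows on a low one (LC), whether or not their ration carried glyphosate residues. The 31 liver libraries of the series were used, 16 from HC cows (8 CONHC and 8 GLYHC) and 15 from LC cows (8 CONLC and 7 GLYLC), so that no library was left aside. The cows were lactating German Holsteins, and each library came from a different animal, sampled by liver puncture at the end of a feeding trial that lasted some months. CON cows ate the control ration and GLY cows a ration whose peas, wheat and straw came from plants sprayed before harvest with the glyphosate product Roundup Record. According to the study's methods, HC rations held more concentrate and correspondingly less maize and grass silage than LC rations, with the same straw share, so the contrast is between whole rations and not between single feeds. The control ration still carried a small background of glyphosate, and the GLYLC group was left with 7 cows because a sample was lost.

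Concentrate feeds are rich in starch and poor in fibre, and in the rumen they are fermented to a larger share of propionate, which the liver of a ruminant turns into glucose. According to the study, the LC rations here held more crude protein and less energy than the HC rations. The liver also secretes most plasma proteins and insulin-like growth factor 1, clears microbial products from portal blood through its resident macrophages, the Kupffer cells, and oxidizes foreign compounds with cytochrome P450 enzymes. Protein folding, by chaperones in the cytosol and in the endoplasmic reticulum (ER), and protein breakdown by the proteasome keep pace with this secretory load.

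Each value below is a normalized count, a raw read count per gene scaled for sequencing depth, or a log2 fold change (lfc, HC against LC) with its standard error over the 16 HC and 15 LC cows. Of 24616 genes in the table, 15916 had at least 20 reads summed over all cows and were tested with edgeR's quasi-likelihood test with treatment as a covariate, and the calls required p below 0.05 before adjustment and below 0.1 after Benjamini-Hochberg adjustment. Before adjustment, p was under 0.05 for 5.88% of tested genes towards higher and for 7.81% towards lower values in HC, the background for the list counts given later. The libraries held 11675775 to 36675542 assigned reads, with a median of 17718770 in HC and 22011498 in LC cows, and this difference in depth had a permutation p of 0.2247 (100000 resamples, two-sided). The defining hepatocyte markers, *ALB* and *APOA1* among them, were detected in every library, and the 10 markers together made up 105700 to 158060 CPM (counts relative to the library total) in HC and 60539 to 151440 CPM in LC cows. GLYLC cow 912 stood apart. It held the lowest hepatocyte marker level and the highest intestinal and smooth muscle marker levels of all cows, so results in which it had a large share are given with and without it. Not every hepatocyte marker was low in cow 912, which had the highest normalized count of *APOA1* of all cows (14861). *APOB* is in both the hepatocyte and the intestinal list. In such bulk tissue, fewer cells of a type and less RNA per cell cannot be told apart.

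Between HC and LC cows 231 genes were called (1.45% of those tested), of which 108 were higher in HC cows (0.679%) and 123 lower (0.773%). In the 4-group model, 221 of these 231 genes (95.7%) had the same direction in CON and in GLY cows. The genes were selected on these same cows together, which by itself favours a shared direction, so this count is a description. An unadjusted p under 0.05 in both treatments with the same direction was reached by 134 of the 231, and by 189 of all tested genes (1.19%), 104 of them higher (0.653%) and 85 lower (0.534%) in HC. In that model, fitted to all 31 cows, the contrast within CON cows gave 0 called genes with edgeR (949 at an unadjusted p under 0.05, 5.96%, and 27 called with DESeq2) and the contrast within GLY cows gave 32 (0.201%). Fits to the CON cows alone and to the GLY cows alone gave 0 called genes each with edgeR, with 1086 and 1546 genes at p under 0.05 before adjustment. The difference of the effect between the treatments was called for 0 genes with edgeR (670 at an unadjusted p under 0.05, 4.21%, and 1 called with DESeq2). Over the 10763 genes with an average of at least 1 on the log2 CPM scale, the fold changes in CON and GLY cows had a Pearson r of 0.20 and a Spearman rho of 0.28, a description across genes, which are not independent replicates. The count of 231 changed with single cows. Leaving out 1 cow lowered it by over 1.5 times for GLYHC cows 32, 159, 152, 127 and 131 (83, 103, 104, 110 and 128 called genes), CONLC cows 941, 103, 145, 60 and 259 (113, 126, 128, 144 and 144), CONHC cows 133 and 41 (118 and 126) and GLYLC cow 912 (136), and raised it to 380 and 404 for CONLC cows 260 and 169. For no tested gene did the HC cows lie wholly apart from the LC cows.

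**Figure D1:**
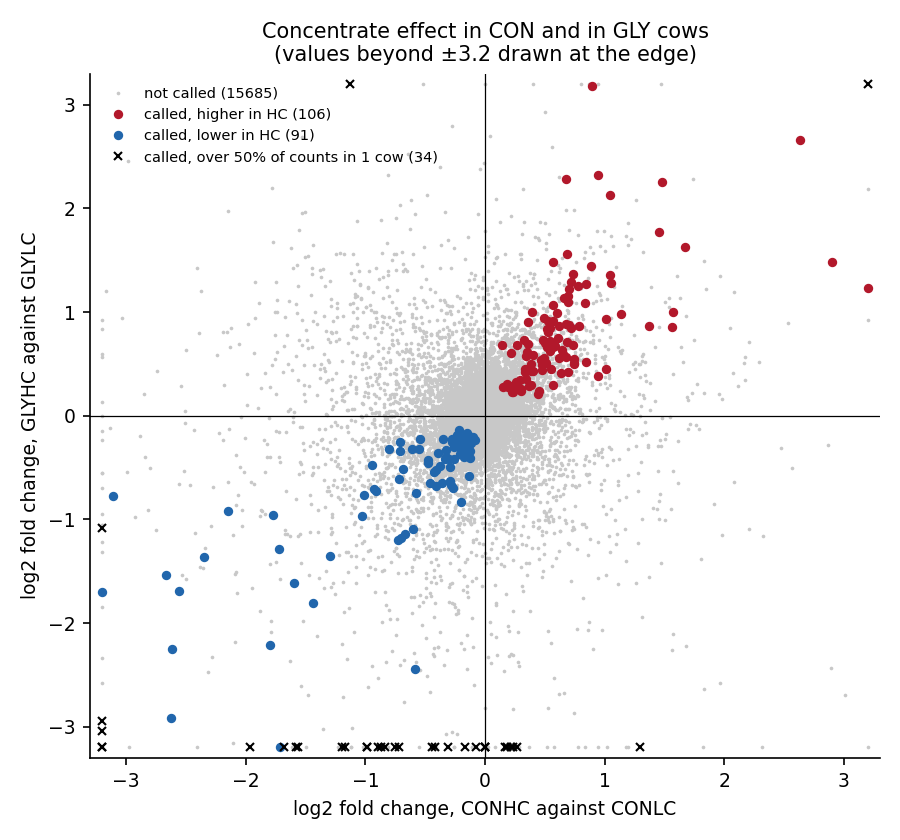
Log2 fold change of each of the 15916 tested genes in CON cows (horizontal axis, CONHC against CONLC) and in GLY cows (vertical axis, GLYHC against GLYLC), with genes called over all cows coloured red (106 higher in HC) or blue (91 lower in HC) and black crosses for 34 called genes with over 50% of their normalized counts in 1 cow. The coloured genes lie in the lower left and upper right parts of the plot, while many crosses sit at the lower edge, far from 0 in GLY cows alone.

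Of the 231 called genes, 34 had more than 50% of their normalized counts in a single cow, which was GLYLC cow 912 for 29 of them. Without cow 912 the test called 136 genes (0.863% of 15752), and 111 of the 231 were among them, 62 higher and 49 lower in HC. The count also moved with other single animals, from 83 genes without GLYHC cow 32 to 404 without CONLC cow 169, and 66 genes were called in all 31 fits that left out 1 cow. With log2 assigned reads as a further covariate, 92 genes were called, 90 of them among the 231.

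Macrophage genes and lysosomal genes leaned towards higher values in HC livers. Of 12 Kupffer cell and macrophage markers, 10 were higher in both treatments, 7 had an unadjusted p under 0.05 towards higher and 1 towards lower values, and 2 were called. The median lfc of the list was 0.36 (0.33 in CON and 0.38 in GLY cows), against -0.01 over all tested genes, and its summed level ran from 849.9 to 1509.9 CPM in LC and from 680.3 to 1815.2 CPM in HC cows. *CD68*, a lysosomal glycoprotein that marks macrophages, had normalized counts of 349.6 to 1157 in LC cows (median 640.2) and 570.2 to 1589 in HC cows (median 1090.5). The cows overlapped widely, with 14 of the 16 HC cows above the LC median (lfc 0.61 ± 0.17, adjusted p = 0.0948). *CD5L*, a secreted macrophage survival protein, had a lowest, median and highest normalized count of 2186, 3567 and 5235 in LC cows and of 2634, 4974 and 6502 in HC cows, again with 14 of the 16 HC cows above the LC median (lfc 0.41 ± 0.11, adjusted p = 0.086). Among the markers that were not called, *TIMD4*, a receptor for phosphatidylserine on dying cells, had an lfc of 0.57 ± 0.18 (adjusted p = 0.138), *VSIG4*, a complement receptor of Kupffer cells, 0.47 ± 0.18 (adjusted p = 0.222) and *CSF1R*, the receptor for macrophage colony-stimulating factor, 0.36 ± 0.13 (adjusted p = 0.201). *MARCO*, a scavenger receptor, had an lfc of -0.08 ± 0.28 and *CD14*, the endotoxin co-receptor, one of -0.18 ± 0.08, so the list did not move as a block. No marker of the list was called without cow 912 (list median 0.32) or with depth as a covariate (0.30).

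Of 69 genes for lysosomal hydrolases, membrane proteins and cofactors, a list drawn up after values had been seen and therefore given without a test, 64 had a positive lfc, 28 had an unadjusted p under 0.05, all towards higher values in HC, and 8 were called, with a median lfc of 0.13. The called genes included *CD68*, already counted with the macrophage markers. *LAMP1*, a lysosomal membrane protein used as a marker of the organelle, had a lowest, median and highest normalized count of 11260.0, 13987 and 16013 in LC cows and of 14738, 17445 and 20134 in HC cows. Every HC cow lay above the LC median, although the lowest HC cows fell among the highest LC cows (lfc 0.29 ± 0.06, adjusted p = 0.0275), and the lfc was 0.26 in CON and 0.33 in GLY cows. *SCPEP1*, a serine carboxypeptidase of the lysosome, showed the same picture, with normalized counts of 1709 to 2665 in LC cows (median 2102) and 2279.7 to 3317 in HC cows (median 2689) (lfc 0.32 ± 0.07, adjusted p = 0.0275). Most cathepsins are cysteine proteases that digest proteins in lysosomes. Of 13 cathepsin genes 3 were called, all of them counted among the 8 above, and 2 without cow 912 or with depth as a covariate. *CTSC*, which activates the serine proteases of immune cells, ran from 2101 to 5774 in LC cows (median 3308) and 2563 to 8052 in HC cows (median 5404), and GLYHC cow 37 was the only HC cow below the LC median (lfc 0.64 ± 0.14, adjusted p = 0.0391). *CTSH* had a lowest, median and highest normalized count of 301, 459 and 814 in LC cows and of 412, 817 and 1375 in HC cows, with 15 of the 16 HC cows above the LC median (lfc 0.69 ± 0.15, adjusted p = 0.0371). *CTSS*, which trims the invariant chain of class II molecules, had medians of 1331 in LC and 2180.0 in HC cows (lfc 0.50 ± 0.13, adjusted p = 0.081). *GM2A*, the activator protein for ganglioside breakdown, and *RNASET2*, a lysosomal ribonuclease, were higher with an lfc of 0.63 ± 0.16 (adjusted p = 0.0637) and 0.37 ± 0.09 (adjusted p = 0.0683). Without cow 912 and with depth as a covariate, 6 and 4 of the 69 genes were called.

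**Figure D2:**
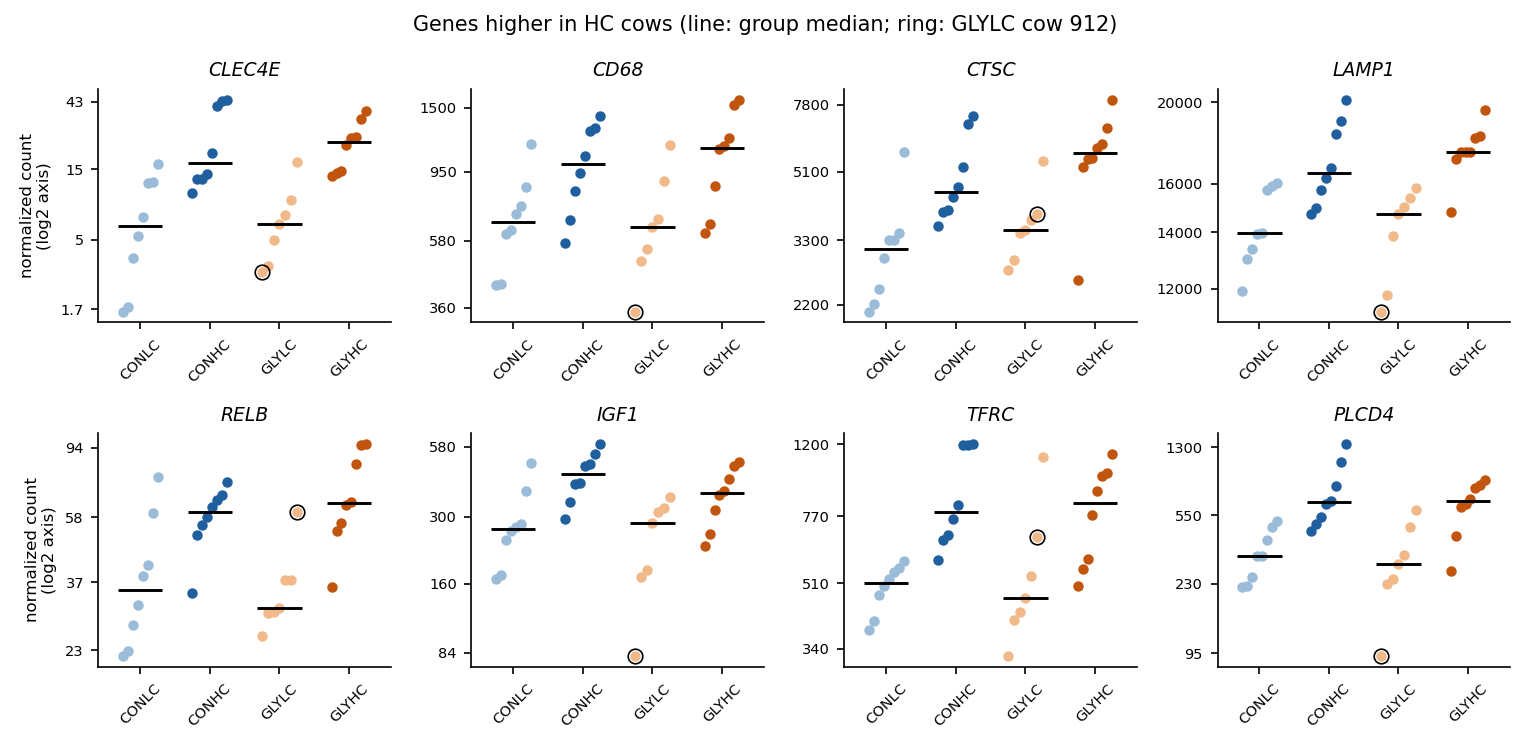
Normalized counts (log2 axis) of 8 genes higher in HC cows, each point a cow, in the groups CONLC, CONHC, GLYLC and GLYHC, with a line at the group median and a ring around GLYLC cow 912. In both treatments the HC median lies above the LC median for each gene, and single cows of the 2 feeding levels overlap.

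Several genes known from myeloid cells were among those called higher in HC cows. *CLEC4E*, the C-type lectin Mincle, which binds microbial glycolipids and ligands from dying cells, had a lowest, median and highest normalized count of 1.64, 6.42 and 16.9 in LC cows and of 10.4, 20.6 and 44.3 in HC cows. All 16 HC cows were above the LC median, while the highest LC cows exceeded the lowest HC cows (lfc 1.65 ± 0.30, adjusted p = 0.0275), with an lfc of 1.67 in CON and 1.62 in GLY cows. *CLEC7A* (dectin-1, a receptor for fungal glucans) had medians of 70.9 in LC and 120.2 in HC cows (lfc 0.71 ± 0.20, adjusted p = 0.0918), *CLEC6A* (dectin-2) 46.8 in LC and 115 in HC cows (lfc 0.98 ± 0.28, adjusted p = 0.0958) and *CLEC10A*, a galactose-binding macrophage lectin with few reads, 5.31 in LC and 8.94 in HC cows (lfc 0.82 ± 0.19, adjusted p = 0.0528). These are 4 of 18 tested genes with a CLEC symbol, a family that was picked after values had been seen, and 10 of the 18 had a positive lfc, with a median of 0.06. Without cow 912, 3 of the 18 were called, and with depth as a covariate 1 was. *ADGRE1*, the F4/80 antigen, and *MS4A7*, a membrane protein of macrophages, were higher by 0.66 ± 0.17 and 0.59 ± 0.15 (adjusted p = 0.0738 and 0.0733). *CYBB*, the catalytic subunit of the phagocyte oxidase, had medians of 173 in LC and 279 in HC cows (lfc 0.60 ± 0.17, adjusted p = 0.0918). *LYZ*, a lysozyme of a gene family with close copies in cattle, between which the counting may divide reads, ran from 180.3 to 1246 in LC cows (median 327) and 209 to 1875 in HC cows (median 949.6), and the groups overlapped over most of this range (lfc 1.16 ± 0.29, adjusted p = 0.0683). *CD84*, an adhesion receptor of leukocytes, had a lowest, median and highest normalized count of 21.3, 44.8 and 63.8 in LC cows and of 41.8, 68.8 and 105 in HC cows, with 15 of the 16 HC cows above the LC median (lfc 0.78 ± 0.16, adjusted p = 0.0299). *ACOD1*, which makes itaconate in activated macrophages, was higher by 0.96 ± 0.20 (adjusted p = 0.0307), and *CCL28*, a chemokine of mucosal surfaces, by 0.89 ± 0.19 (adjusted p = 0.0307). *CLEC6A*, *CLEC7A*, *ADGRE1*, *MS4A7*, *CYBB*, *LYZ* and *CLEC10A* were named after their values were seen.

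The NF-kappaB pathway and TNF family list, 32 tested genes, held 5 called members, all higher in HC, and 24 members were higher in HC, with a median lfc of 0.23 (0.14 in CON and 0.33 in GLY cows). *RELB* and *NFKB2* encode the subunits of the dimer that ends the non-canonical arm of the pathway, and both rose. *RELB* had a lowest, median and highest normalized count of 22.1, 31.5 and 76.5 in LC cows and of 34.3, 62.8 and 96.6 in HC cows, with all 16 HC cows above the LC median (lfc 0.72 ± 0.17, adjusted p = 0.0569). *NFKB2* had medians of 255 in LC and 337 in HC cows (lfc 0.45 ± 0.11, adjusted p = 0.0612). *CD40*, a TNF receptor family member that feeds this arm, had a lowest, median and highest normalized count of 20.4, 36.4 and 71.5 in LC cows and of 28.4, 55.3 and 87.7 in HC cows (lfc 0.60 ± 0.17, adjusted p = 0.0948). *TNFRSF9*, a costimulatory receptor, ran from 0.885 to 32.9 in LC cows (median 5.01) and 5.49 to 68.9 in HC cows (median 20.8) (lfc 1.58 ± 0.43, adjusted p = 0.09), and its lfc was 0.94 in CON and 2.32 in GLY cows. *TNFRSF21*, a death domain receptor, was higher in HC by 0.40 ± 0.11 (adjusted p = 0.0948), with an lfc of 0.15 in CON and 0.68 in GLY cows. No difference between the treatments passed the interaction test for these genes. Without cow 912, 3 members of the list were called, *RELB* and *NFKB2* among them, and with depth as a covariate 0 were, with edgeR in both fits.

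Genes of antigen presentation and of the interferon response leaned the same way with few calls. Of 21 tested antigen presentation genes, 20 had a positive lfc and 15 were higher in both treatments. The median was 0.31 (0.17 in CON and 0.36 in GLY cows). The called member was *CTSS*, already counted with the cathepsins, while 0 were called with edgeR without cow 912 or with depth as a covariate. GLYHC cow 117 was the highest cow for most of the list, with 78513 for *B2M* against an HC median of 24131. *CD74*, the invariant chain, had an lfc of 0.48 ± 0.15 (adjusted p = 0.121) and *BOLA-DRA*, a class II chain, 0.51 ± 0.15 (adjusted p = 0.114), neither of them called, and reads may be divided among similar class II genes. Of 35 interferon-stimulated genes, 34 had a positive lfc, 20 were higher in both treatments and the median was 0.20. Of them 8 reached an unadjusted p under 0.05 and only *IFI6* was called, again with 0 called without cow 912 or with depth as a covariate. *IFI6* ran from 109.7 to 536 in LC cows (median 188) and 189 to 2945 in HC cows (median 286), and GLYHC cows 117 and 131 and CONHC cow 41 lay far above the other cows (lfc 1.45 ± 0.41, adjusted p = 0.0948), with an lfc of 0.68 in CON and 2.28 in GLY cows. Complement genes, 33 tested, had 0 called members with edgeR, 14 with an unadjusted p under 0.05 towards higher and 1 towards lower values, and a median of 0.15. *MASP2*, a protease of the lectin pathway, had the smallest p (lfc 0.21 ± 0.06, adjusted p = 0.103). T and NK cell markers, 15 tested, had a median of 0.15, but of -0.04 in CON and 0.40 in GLY cows. Of these markers 2 were higher in both treatments, and GLYHC cow 117 was the highest cow for most of them. B and plasma cell markers, 8 tested, had a median of 0.01 and neutrophil markers, 7 tested, one of -0.09. In the 3 lists 0 members were called with edgeR.

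Other genes with low p values among those higher in HC belonged to none of the groups above. *TMED6*, a p24 family protein of vesicle transport between the ER and the Golgi apparatus, had a lowest, median and highest normalized count of 59.0, 100.5 and 218 in LC cows and of 113, 245 and 411 in HC cows. All 16 HC cows were above the LC median (lfc 1.13 ± 0.20, adjusted p = 0.0275), and the lfc was 1.37 in CON and 0.87 in GLY cows. *PLCD4*, a phospholipase C that releases the second messengers of calcium signalling, had normalized counts of 92.0 to 584 in LC cows (median 326) and 269 to 1359.6 in HC cows (median 648) (lfc 1.06 ± 0.20, adjusted p = 0.0275). *ORAI2*, a pore subunit of store-operated calcium channels, had medians of 14.2 in LC and 30.3 in HC cows with all 16 HC cows above the LC median (lfc 1.0 ± 0.22, adjusted p = 0.0371). These were the 2 called members of 22 calcium signalling genes, whose median lfc was 0.01. In the cAMP pathway, *PKIB*, an inhibitor of protein kinase A, had a lowest, median and highest normalized count of 24.8, 47.1 and 103 in LC cows and of 33.9, 89.9 and 129 in HC cows (lfc 0.79 ± 0.17, adjusted p = 0.0371), and *PDE4D*, a phosphodiesterase that breaks down cAMP, had medians of 18.6 in LC and 28.7 in HC cows (lfc 0.63 ± 0.16, adjusted p = 0.0657). The protein kinase A list, 16 tested genes, had no other call and a median lfc of 0.04, with 11 positive and 5 negative values. *PKIG*, a further inhibitor, and *AKAP12* had an lfc of -0.34 ± 0.15 and -0.65 ± 0.23 without being called (adjusted p = 0.3 and 0.182). *ROS1*, a receptor tyrosine kinase, had a lowest, median and highest normalized count of 0.715, 7.08 and 19.8 in LC cows and of 3.39, 37.0 and 99.7 in HC cows, the HC cows spanning almost the whole range (lfc 2.16 ± 0.42, adjusted p = 0.0275). *TMPRSS7*, a membrane serine protease, had medians of 23.6 in LC and 72.5 in HC cows with all 16 HC cows above the LC median (lfc 1.19 ± 0.24, adjusted p = 0.0275). The remaining genes of this kind were *C22H3orf14* (lfc 0.59 ± 0.12, adjusted p = 0.0275) and *GSDMB*, a gasdermin (lfc 0.62 ± 0.13, adjusted p = 0.0307). Among the largest rises were *SSPO* (lfc 1.61 ± 0.40, adjusted p = 0.0637), *UNC5C*, a netrin receptor (lfc 1.22 ± 0.33, adjusted p = 0.0918), and *SPC24*, a kinetochore protein (lfc 1.16 ± 0.32, adjusted p = 0.0918), each with single HC cows far above the rest.

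Growth hormone, iron and heme genes gave few called members. *IGF1*, the growth factor the liver releases in response to growth hormone, had a lowest, median and highest normalized count of 81.3, 272 and 496 in LC cows and of 229, 411 and 596 in HC cows, with 14 of the 16 HC cows above the LC median (lfc 0.62 ± 0.17, adjusted p = 0.0893). *IGFBP2*, a binding protein for this factor, went the other way, with normalized counts of 8146 to 28038 in LC cows (median 16541) and 6677 to 18144 in HC cows (median 12042) (lfc -0.57 ± 0.16, adjusted p = 0.0918). The lfc was 0.65 in CON and 0.60 in GLY cows for *IGF1* and -0.81 in CON and -0.32 in GLY cows for *IGFBP2*, and the 21 genes of the axis had a median of 0.00. *TFRC*, the transferrin receptor that takes up iron, had a lowest, median and highest normalized count of 326, 499.7 and 1112 in LC cows and of 502, 801 and 1203 in HC cows, and every HC cow exceeded the LC median (lfc 0.68 ± 0.15, adjusted p = 0.039). *FECH*, which inserts iron into the heme ring, was higher (lfc 0.27 ± 0.07, adjusted p = 0.0682) and *PPOX*, the enzyme of the step before, lower (lfc -0.21 ± 0.05, adjusted p = 0.0637). Of enzymes and transporters of carbohydrate and lipid metabolism, *PKLR*, the pyruvate kinase of liver, had medians of 1832 in LC and 2279 in HC cows (lfc 0.33 ± 0.09, adjusted p = 0.0948) and *APOF*, a lipid transfer inhibitor protein, 7795 in LC and 9456 in HC cows (lfc 0.33 ± 0.09, adjusted p = 0.0958). *PEX5*, the import receptor of peroxisomes, was higher by 0.21 ± 0.06 (adjusted p = 0.0948) and *PLAU*, the urokinase plasminogen activator, by 0.62 ± 0.16 (adjusted p = 0.0683). *CYP3A4*, a drug-oxidizing enzyme of a family with several close bovine copies, had a lowest, median and highest normalized count of 1909, 3349.5 and 4220.3 in LC cows and of 2485, 4524 and 5807 in HC cows (lfc 0.49 ± 0.12, adjusted p = 0.0569), and 17 of 22 tested P450 genes outside the CYP1 family had a positive lfc (median 0.16). Of these genes *IGF1*, *PKLR*, *APOF*, *IGFBP2* and *PEX5* were called in 17, 9, 7, 13 and 7 of the 31 fits that left out 1 cow, and *TFRC* in all 31.

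Cytosolic chaperones leaned towards lower values in HC cows. Of 26 tested chaperone and chaperonin genes, 24 were lower in HC in both treatments, 22 reached an unadjusted p under 0.05, all towards lower values, and 6 were called. The list median was -0.22 (-0.19 in CON and -0.23 in GLY cows). *HSPA8*, the constitutive HSP70 that folds nascent proteins, had a lowest, median and highest normalized count of 7258, 11410.0 and 23316 in LC cows and of 7181, 8885 and 11015 in HC cows. Cow 912 was the highest of all cows, and no HC cow lay above the LC median (lfc -0.49 ± 0.11, adjusted p = 0.0423), and without cow 912 the lfc was -0.38 with an adjusted p of 0.0397. Processed copies of this gene in the genome may share some of its reads. *STIP1*, which passes client proteins from HSP70 to HSP90, had a lowest, median and highest normalized count of 596, 780.1 and 1232 in LC cows and of 553, 636 and 776 in HC cows, and no HC cow lay above the LC median (lfc -0.38 ± 0.08, adjusted p = 0.0275). Without cow 912 its lfc was -0.32 with an adjusted p of 0.034. *FKBP4*, an HSP90 partner of steroid receptors, had normalized counts of 2275 to 3423 in LC cows (median 2979.5) and 1923 to 3018 in HC cows (median 2252) (lfc -0.29 ± 0.07, adjusted p = 0.0468). The chaperonin ring TRiC, which folds actin and tubulin, was represented by *TCP1* (lfc -0.20 ± 0.05, adjusted p = 0.0468), *CCT8* (lfc -0.26 ± 0.06, adjusted p = 0.0423) and *CCT2* (lfc -0.26 ± 0.07, adjusted p = 0.09), and *CCT4* and *CCT5* had an lfc of -0.19 ± 0.05 and -0.19 ± 0.06 without being called (adjusted p = 0.109 and 0.123). The HSP90 genes *HSP90AB1* and *HSP90AA1* had an lfc of -0.23 ± 0.07 and -0.23 ± 0.08 (adjusted p = 0.132 and 0.201), whereas the mitochondrial *HSPD1* had one of 0.05 ± 0.07 and the heat shock factor *HSF1* one of 0.03 ± 0.08. Both without cow 912 and with depth as a covariate, 5 members were called, with list medians of -0.18 and -0.21.

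Partners of HSP90, a list of 23 genes assembled after values had been seen, held 7 called members, all lower, against 3 without cow 912 and 4 with depth as a covariate. Beside *STIP1* and *FKBP4* these were *SUGT1*, which links HSP90 to the cell cycle machinery, with a lowest, median and highest normalized count of 313, 351 and 394 in LC cows and of 249.6, 299 and 339 in HC cows and no HC cow above the LC median (lfc -0.23 ± 0.05, adjusted p = 0.0307), *DNAJC7* (lfc -0.16 ± 0.04, adjusted p = 0.0683), *PPID*, a cyclophilin (lfc -0.25 ± 0.06, adjusted p = 0.0729), *PTGES3*, the p23 co-chaperone (lfc -0.23 ± 0.06, adjusted p = 0.0918), and *CACYBP* (lfc -0.29 ± 0.08, adjusted p = 0.086). *DNAJB4*, an HSP40 that stimulates HSP70, had medians of 153 in LC and 125 in HC cows, with every HC cow at or below the LC median (lfc -0.46 ± 0.10, adjusted p = 0.0371). The DNAJ family, 40 tested genes and likewise listed after values had been seen, did not fall as a block. Of these genes 2 were called, both lower, while 27 had a negative and 13 a positive lfc, with a median of -0.03.

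**Figure D3:**
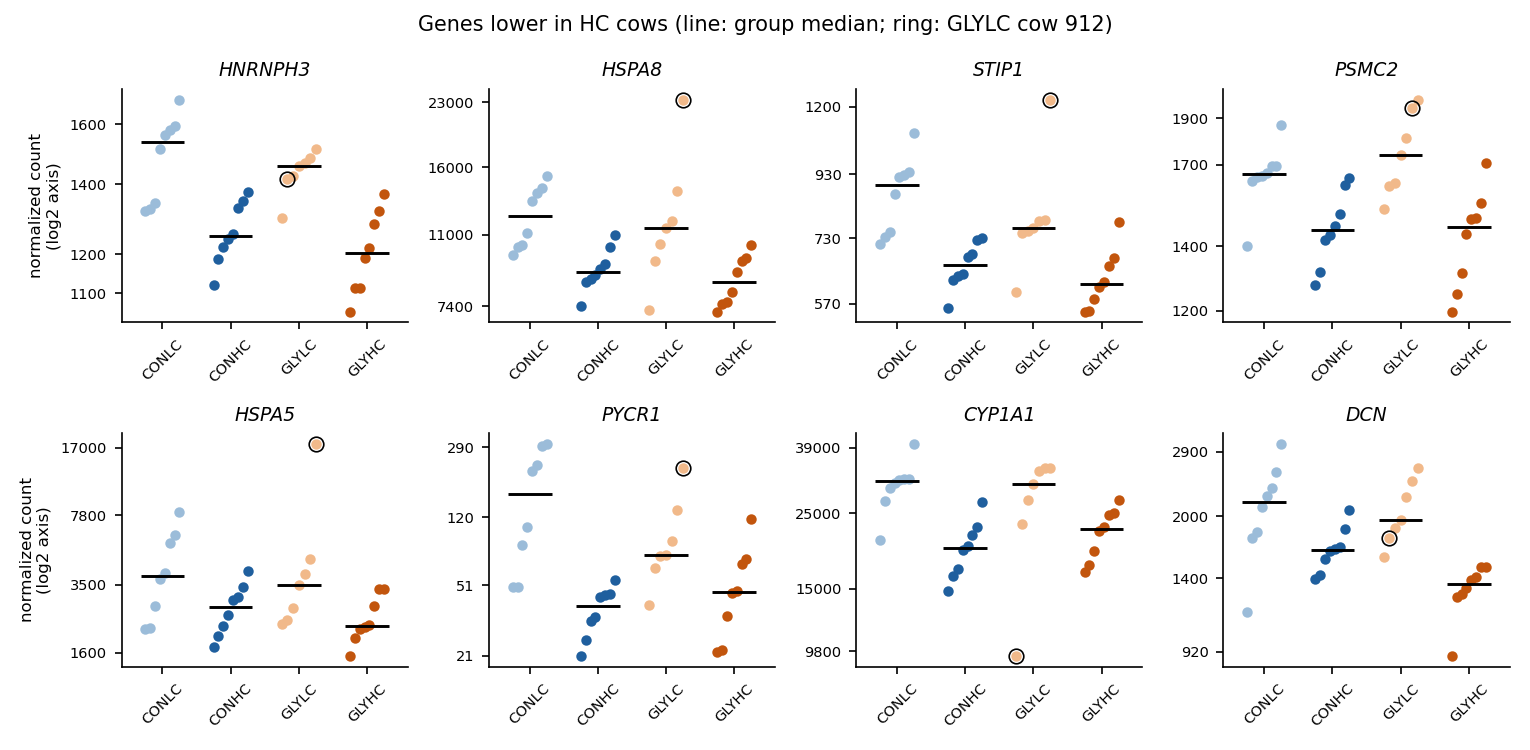
Normalized counts (log2 axis) of 8 genes lower in HC cows, each point a cow, in the groups CONLC, CONHC, GLYLC and GLYHC, with a line at the group median and a ring around GLYLC cow 912. The HC medians lie below the LC medians in both treatments, cow 912 is the highest cow for *HSPA8*, *STIP1* and *HSPA5*, and for *CYP1A1* it is the lowest.

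Proteasome subunits differed by small steps, with lower values in HC cows. Of 34 tested subunit genes, 31 were lower in HC in both treatments, 24 had an unadjusted p under 0.05, all towards lower values, and 5 were called, with a median lfc of -0.16 (-0.13 in CON and -0.19 in GLY cows). The called genes encode parts of the regulatory cap that unfolds tagged proteins. The ATPase subunit *PSMC2* had a lowest, median and highest normalized count of 1402, 1668 and 1986 in LC cows and of 1197, 1455 and 1706 in HC cows (lfc -0.23 ± 0.05, adjusted p = 0.0442), and *PSMC6* had medians of 1086 in LC and 988 in HC cows (lfc -0.18 ± 0.05, adjusted p = 0.093). The scaffold subunit *PSMD1* had medians of 2263 in LC and 1951 in HC cows, with no HC cow above the LC median (lfc -0.21 ± 0.05, adjusted p = 0.0657). The lid subunits *PSMD6* and *PSMD12* were lower with an lfc of -0.23 ± 0.06 and -0.20 ± 0.05 (adjusted p = 0.0548 and 0.0683). Of these, *PSMC2* and *PSMD6* were called in all 31 fits that left out 1 cow, *PSMD1* in 28, *PSMD12* in 27 and *PSMC6* in 10. Between 2 and 12 members were called in those fits, and 3 without cow 912 or with depth as a covariate. The subunit genes *PSMB8*, *PSMB9* and *PSMB10* were counted with the antigen presentation genes and went the other way. Their lfc was 0.29 ± 0.21, 0.38 ± 0.24 and 0.22 ± 0.17, without a call (adjusted p = 0.592, 0.494 and 0.608). GLYHC cow 117 was the highest cow for each of them.

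**Figure D4:**
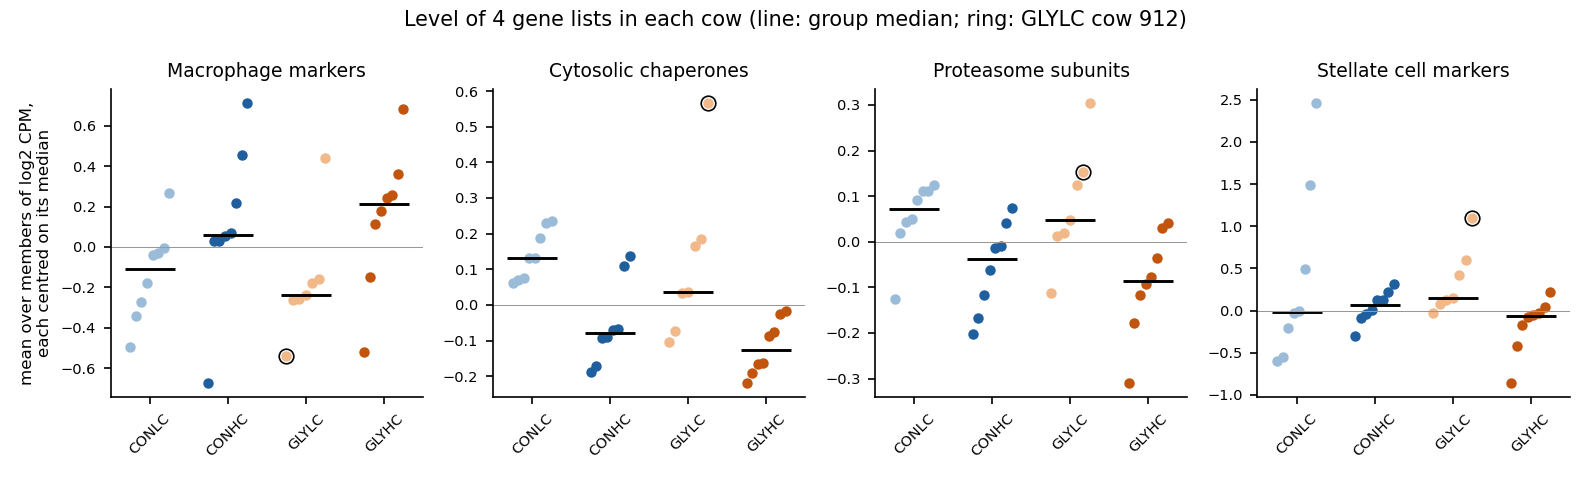
Mean over the members of 4 gene lists of log2 CPM centred on each gene's median over cows (vertical axis), each point a cow, by feeding group, with a line at the group median and a ring around GLYLC cow 912. The cytosolic chaperone medians are 0.13 in CONLC, -0.08 in CONHC, 0.04 in GLYLC and -0.13 in GLYHC, and the stellate cell level has its highest values, 2.46 and 1.49, in CONLC cows 103 and 166.

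The calls of 2 ER folding genes changed with single cows. *HSPA5* (BiP), the HSP70 of the ER, ran from 2103 to 17731 in LC cows (median 3747) and 1539 to 4095 in HC cows (median 2327) (lfc -0.90 ± 0.25, adjusted p = 0.0918), and *MANF*, a secreted ER stress protein, from 280.2 to 2920.5 in LC cows (median 544) and 224 to 568 in HC cows (median 366) (lfc -0.93 ± 0.27, adjusted p = 0.0973). Cow 912 held the highest value of both, and without it the lfc was -0.56 with an adjusted p of 0.166 for *HSPA5* and -0.52 with an adjusted p of 0.2 for *MANF*, neither of them called. The call of *HSPA5* held in 14 and that of *MANF* in 9 of the 31 fits that left out 1 cow, so it was lost without many cows other than 912. The 31 ER folding genes had a median of -0.11, and of -0.04 without cow 912. Of 23 tested ATF4 and ATF5 response genes, which supply amino acids and charge tRNAs under stress, 19 had a negative lfc, 9 of them with p under 0.05 before adjustment, and edgeR called 0. The median was -0.29 and -0.14 without cow 912. *NUPR1*, the member with the smallest p, was higher in value in HC (lfc 0.20 ± 0.06, adjusted p = 0.121), while *ASNS*, asparagine synthetase, had an lfc of -0.70 ± 0.23 (adjusted p = 0.146) and of -0.33 without cow 912. *PYCR1*, which catalyses the last step of proline synthesis in mitochondria and is outside that list, fell and did not rest on this cow. It had a lowest, median and highest normalized count of 39.6, 88.6 and 303 in LC cows and of 20.9, 44.4 and 117 in HC cows, with 1 HC cow above the LC median (lfc -1.54 ± 0.31, adjusted p = 0.0275), an lfc of -2.15 in CON and -0.92 in GLY cows, and -1.42 with an adjusted p of 0.0397 without cow 912. *ALDH1L2*, a folate enzyme of mitochondria, was lower with an lfc of -0.54 ± 0.14 (adjusted p = 0.0683) and *MARS*, methionyl-tRNA synthetase, one of -0.36 ± 0.10 (adjusted p = 0.0901), or -0.25 (adjusted p = 0.0893) without cow 912, and both were named after their values were seen.

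Splicing and ribosomal protein genes gave 3 called members, all slightly lower in HC. *HNRNPH3*, a splicing regulator, had a lowest, median and highest normalized count of 1299, 1469 and 1689 in LC cows and of 1056, 1229.6 and 1376 in HC cows, and no HC cow reached the LC median (lfc -0.25 ± 0.05, adjusted p = 0.0275). Its lfc was -0.24 in CON and -0.25 in GLY cows and -0.25 with an adjusted p of 0.0168 without cow 912, and *HNRNPD*, which binds AU-rich messages, was lower with an lfc of -0.20 ± 0.05 (adjusted p = 0.086). These were the called genes among 52 splicing factors, 42 of which had a negative lfc (median -0.08), and 1 was called without cow 912 and both with depth as a covariate. Of 74 cytosolic ribosomal protein genes, 68 had a negative lfc with a median of -0.07, 8 had an unadjusted p under 0.05 and *RPL37A* was called (lfc -0.25 ± 0.06, adjusted p = 0.0451), a gene family with many processed copies that may share reads, and 1 member of this list was called in each of those fits. *AAMDC* (lfc -0.37 ± 0.08, adjusted p = 0.0275) and *GPATCH2* (lfc -0.36 ± 0.08, adjusted p = 0.0371) were the other genes among the lowest p values on this side.

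*CYP1A1*, the P450 enzyme induced through the aryl hydrocarbon receptor by planar aromatic compounds, was lower in HC cows. It had a lowest, median and highest normalized count of 9499, 30615 and 40009 in LC cows and of 14715, 20805 and 27264 in HC cows, and no HC cow lay above the LC median (lfc -0.47 ± 0.13, adjusted p = 0.086). Cow 912 held the lowest value of all cows for this gene, and without it the lfc was -0.55 with an adjusted p of 0.0168, against -0.61 in CON and -0.32 in GLY cows in the fit with all cows. The gene was called in 13 of the 31 fits that left out 1 cow. *CYP1A2*, its close relative, had an lfc of -0.31 ± 0.10 (adjusted p = 0.168) and *NQO1*, a quinone reductase, -0.28 ± 0.11 (adjusted p = 0.234), while the receptor gene *AHR* and its partner *ARNT* had -0.03 ± 0.09 and -0.01 ± 0.08. All 7 tested genes of the list had a negative lfc, with a median of -0.28, but 4 were lower in both treatments. *AHR*, *ARNT* and *TIPARP* lay near 0 and were slightly higher in HC in CON cows. Of the list 2 were called without cow 912 and 0 with depth as a covariate. The carbonyl reductases, which reduce ketones and quinones, divided. *CBR1* had a lowest, median and highest normalized count of 3264, 7448 and 9855 in LC cows and of 4450.0, 5647 and 6796 in HC cows (lfc -0.39 ± 0.11, adjusted p = 0.0948) and was called in 8 of those 31 fits, whereas *CBR3* had a lowest, median and highest normalized count of 9.63, 14.9 and 22.9 in LC cows and of 13.5, 27.2 and 53.8 in HC cows (lfc 0.81 ± 0.19, adjusted p = 0.0548). *ME1*, a cytosolic source of NADPH, was lower with medians of 25.8 in LC and 18.0 in HC cows (lfc -0.71 ± 0.19, adjusted p = 0.0768), and *UGDH*, which makes the sugar donor of glucuronidation and was named after its value was seen, with 8402 in LC and 6232 in HC cows (lfc -0.44 ± 0.12, adjusted p = 0.086). Of 25 tested conjugation enzymes 0 were called with edgeR (7 at an unadjusted p under 0.05), and *SULT1B1*, a sulfotransferase, had the smallest p (lfc 0.38 ± 0.12, adjusted p = 0.125). *ALDH1A2*, which makes retinoic acid, had a lowest, median and highest normalized count of 28.6, 64.1 and 135 in LC cows and of 17.2, 35.5 and 72.8 in HC cows (lfc -0.84 ± 0.19, adjusted p = 0.0442). *SLC1A1*, a glutamate transporter, was lower with an lfc of -0.55 ± 0.15 (adjusted p = 0.0793), with no HC cow above the LC median.

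Matrix genes leaned towards lower values in HC cows, and a few LC cows held by far the highest values. *DCN* (decorin), a proteoglycan that binds collagen, had a lowest, median and highest normalized count of 1157, 2107 and 3034 in LC cows and of 896, 1459 and 2076 in HC cows, and no HC cow lay above the LC median (lfc -0.50 ± 0.10, adjusted p = 0.0275). Its lfc was -0.36 in CON and -0.65 in GLY cows, and the gene was called in all 31 fits that left out 1 cow. *ASPN* (asporin), a relative of decorin, had medians of 1209 in LC and 881 in HC cows (lfc -0.48 ± 0.13, adjusted p = 0.0819) and was called in 18 of those fits. *ECM2* and *OLFML2B*, matrix proteins chosen after their values were seen, were lower with an lfc of -0.66 ± 0.17 and -0.82 ± 0.23 (adjusted p = 0.0699 and 0.0948). Of 27 tested collagen and matrix genes, 21 had a negative lfc, 14 had an unadjusted p under 0.05, all towards lower values, and the median was -0.39 (-0.36 without cow 912). Of these genes 2 were called, and 2 without cow 912 and 1 with depth as a covariate. *COL1A1* and *COL1A2*, the chains of type I collagen, had an lfc of -2.01 ± 0.65 and -1.92 ± 0.59 without being called (adjusted p = 0.142 and 0.124). Their highest values, 9026 and 10852, came from CONLC cow 103, against HC maxima of 259 and 541. The medians lay close together, at 139.6 in LC and 128.2 in HC cows for *COL1A1* and at 165.3 in LC and 177.3 in HC cows for *COL1A2*. All 11 stellate cell and fibroblast markers had a negative lfc, 8 had an unadjusted p under 0.05 and 1, *DCN*, was called. The summed level of these markers ran from 128.3 to 354.4 CPM in HC and from 183.0 to 2491.5 CPM in LC cows, with medians of 218.8 and 252.2 CPM, and the part of cows 103, 166 and 912 in the result was not tested beyond leaving out each cow.

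Some called genes had a large share of their counts in single animals. The intestinal genes *FABP2*, *MUC13* and *OLFM4*, with *SLC28A2*, a nucleoside transporter, and *BCO1*, a carotenoid oxygenase, had a median of 0 in both feeding levels, and 99.8%, 98.9%, 95.1%, 99.2% and 99.1% of their normalized counts came from cow 912. The value in that cow was 4283 for *FABP2*, 521 for *MUC13*, 239 for *OLFM4*, 183 for *SLC28A2* and 974 for *BCO1*, against HC maxima of 3.39, 1.83, 1.36, 0.678 and 2.29, and none of them passed the filter on low counts without it. The smooth muscle genes *CNN1*, *ACTG2* and *TAGLN* had 84%, 93.1% and 34.3% of their counts in that cow, and without it their adjusted p was 0.2, 0.188 and 0.179. Every gene of the smooth muscle marker list was lower in HC in both treatments, though *SMTN* only slightly in CON cows (lfc -0.05). Cow 912 was the highest cow for all of that list except *ACTA2*, which was highest in GLYLC cow 42. The lfc of *ACTA2* was -0.81 ± 0.26 without a call (adjusted p = 0.138), with medians of 936 in LC and 665 in HC cows. *S100G*, a calcium-binding protein of intestine, had 87.5% of its counts in cow 912. The lfc of *S100G* was -3.36 in the fit with all cows and -0.84 (adjusted p = 0.309) without that cow. In the other direction *KRT1*, a keratin of skin, had 52.3% of its counts in GLYHC cow 154 (HC maximum 96.9), and *KRT14* an HC maximum of 13.9 in GLYHC cow 32.

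The genes *FUT1*, *GEM* and *PANX2* completed the largest falls, with an lfc of -1.32 ± 0.37, -1.0 ± 0.27 and -1.34 ± 0.33 (adjusted p = 0.0948, 0.0918 and 0.0637), and of -0.77, -0.79 and -1.46 without cow 912. Calls held in 11, 13 and 30 of the 31 fits that left out 1 cow.

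Most of intermediary metabolism had no called gene. Gluconeogenesis and propionate entry, 21 tested genes, had 0 called members with edgeR, 0 at an unadjusted p under 0.05, and a median lfc of 0.02, with *PCCA*, a propionyl-CoA carboxylase subunit, at the smallest p (lfc 0.17 ± 0.08, adjusted p = 0.367). Fatty acid oxidation and ketogenesis, 33 tested, had 0 called with edgeR, 4 at an unadjusted p under 0.05 and a median of 0.06. Bile acid synthesis and transport, 21 tested, had 18 genes with a positive lfc and 0 called with edgeR (7 at an unadjusted p under 0.05), and *SLC51B*, a subunit of the bile acid exporter, had an lfc of 0.59 ± 0.19 (adjusted p = 0.148). Cholesterol synthesis and uptake, 27 tested, had 21 genes with a negative lfc, a median of -0.07, 0 called with edgeR and 1 at an unadjusted p under 0.05. The citric acid cycle, 27 tested, had 0 called with edgeR and 4 at an unadjusted p under 0.05, led by *SUCLG2*, a subunit of succinyl-CoA ligase (lfc 0.17 ± 0.05, adjusted p = 0.112). The urea cycle list, 14 tested, had 0 called with edgeR, 4 at an unadjusted p under 0.05 and a median of 0.08, led by *NAGS*, which makes the activator of the cycle (lfc 0.19 ± 0.08, adjusted p = 0.264). Respiratory chain and ATP synthase genes, 69 tested, had 59 negative values, a median of -0.07, 0 called with edgeR and 5 at an unadjusted p under 0.05. A p above the threshold does not show that these genes were alike in the 2 feeding levels.

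**Figure D5:**
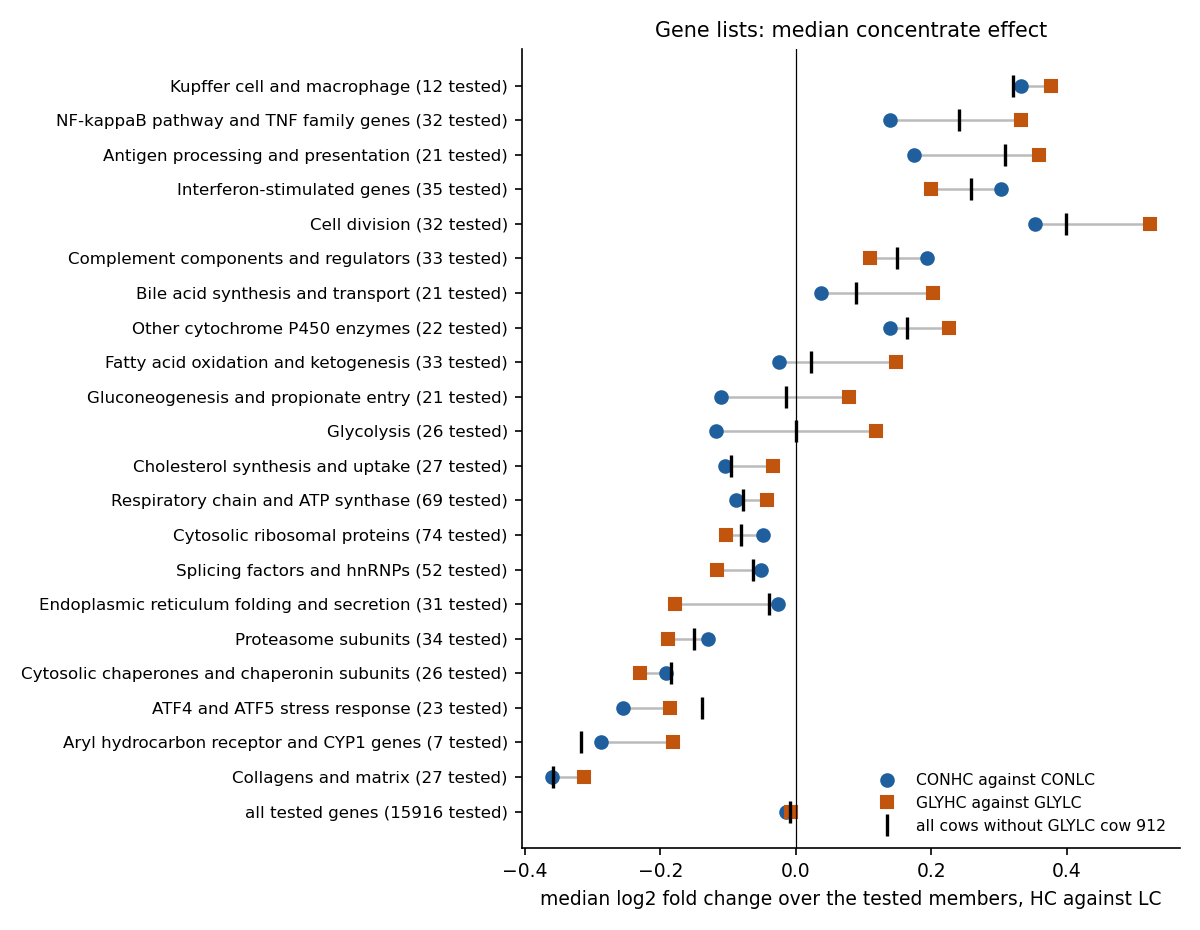
Median log2 fold change, HC against LC, over the tested members of 21 gene lists and of all tested genes (horizontal axis), in CON cows (circles), in GLY cows (squares) and over all cows without GLYLC cow 912 (bars). Macrophage markers, NF-kappaB, antigen presentation, interferon and cell division genes lie above 0, and proteasome, chaperone, CYP1 and matrix genes below 0, in both treatments, while all tested genes lie at -0.01 over all cows.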

How the data were processed

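Liver RNA of 31 cows (8 CONHC, 8 CONLC, 8 GLYHC and 7 GLYLC) was sequenced from stranded poly(A) libraries, and the group and number of each cow came from the labels. The authors trimmed reads with Trim Galore after a FastQC check, aligned them with HISAT2 2.1.0 to the bovine build UMD3.1 and deposited raw read counts per gene from HTSeq 0.8.0. Whether the counting used strand is not given in the sources used here. A second deposited table, of values normalized with DESeq2 1.20.0, was not used.

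Counts of 11675775 to 36675542 per cow were TMM-normalized and tested in R 4.3.3 with edgeR 4.0.16 (quasi-likelihood F test, Benjamini-Hochberg adjustment) on genes with at least 20 reads in all. The additive model held treatment and concentrate proportion, and a model with the 4 groups gave the contrast within CON, within GLY and their difference. Calls needed an unadjusted p under 0.05 and an adjusted p under 0.1, the thresholds of the study. Normalized counts are counts scaled by TMM to a common library size, and list levels are log2 CPM with a prior count of 2. The standard error of a fold change was taken from the F value. Each library is a separate cow, so p-values measure the spread between animals.

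Genes were named by rule: the 12 smallest p values in each direction among called genes with a symbol, the 8 largest rises and the 8 largest falls among those with a median of at least 10 normalized counts in the higher group, every called member of a gene list, and the member with the smallest p of a list without calls, of which those that add to the text are given. Members and lists were chosen with earlier results of these data known, and genes said to be named after their values were seen fall outside the rule, as do list members given for comparison. Results for some genes that the rule names are not reported here. On simulated counts, with HC against LC changed in 200 genes and 15801 genes tested, a change of 1 on the log2 scale was recovered for 81.6% of genes and a change of 0.5 for 53.5%, and 22 unchanged genes were called as well.

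As alternatives, the normalization was changed to RLE or upper quartile, and the others were no filter, filterByExpr (minimum 10), a robust fit, an adjusted p under 0.05, DESeq2 1.42.0, limma 3.58.1 voom with sample weights, no treatment covariate, log2 assigned reads as a covariate, the mean of the CON and GLY contrasts, only the 2 compared groups, and each cow left out.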

Additional observations from a re-analysis of the deposited data

Results flagged for a closer look

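Values that stood apart from the other cows of the same feeding group were sought for 127 genes named in the text, on the log2 CPM scale, as the highest or lowest cow whose gap to its nearest neighbour took up more of the group's range than Dixon's 95% critical value allows. Chance flags about 1 in 20 groups, and 56 values stood apart among 506 gene and group pairs. GLYLC cow 912 gave 21 of them. It was the highest GLYLC cow, in normalized counts, for *ACTG2* 7356, *ASNS* 1062, *BCO1* 974, *CNN1* 2582, *FABP2* 4283, *FUT1* 347, *GEM* 129 and *HSPA5* 17731. It was also the highest for *MANF* 2920.5, *MARS* 848, *MUC13* 521, *OLFM4* 239, *PSMD6* 843, *S100G* 3666, *SLC28A2* 183, *STIP1* 1232 and *TAGLN* 3547. It was the lowest GLYLC cow for *AAMDC* 1093, *CYP1A1* 9499, *CYP1A2* 42128 and *TIMD4* 80.6.

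Among the CONHC cows, the highest normalized count stood apart for *CCT2* 2225 and *MASP2* 6706 in cow 208, *IFI6* 969 in cow 41 and *KRT1* 1.17 in cow 133. For CONHC cows the lowest value was separate from the rest for *FUT1* 4.27 in cow 41, *ME1* 11.1 in cow 144 and *NAGS* 725 in cow 133. Among the CONLC cows, the highest normalized count stood apart for *SLC28A2* 0.818 in cow 166. For CONLC cows the lowest value was separate from the rest for *CLEC10A* 2.52 in cow 103, *CYP3A4* 2529 in cow 941, *FECH* 467 in cow 166, *GSDMB* 207 in cow 60 and *PSMC2* 1402, *PSMD1* 1852, *PSMD12* 709 and *UGDH* 4654 in cow 169. Among the GLYHC cows, the highest normalized count stood apart for *ARNT* 649 and *NUPR1* 7335 in cow 32, *BCO1* 1.49 in cow 117 and *FABP2* 3.39 and *SLC28A2* 0.678 in cow 154. For GLYHC cows the lowest value was separate from the rest for *CCT4* 1464 and *PSMC6* 835 in cow 32, *CLEC6A* 22.9, *CTSC* 2563, *LYZ* 209, *PKIB* 33.9 and *SLC51B* 489.6 in cow 37 and *DCN* 896 and *PCCA* 3028 in cow 117. Among the GLYLC cows, the highest normalized count stood apart for *BOLA-DRA* 6784 and *CD74* 9830.5 in cow 544 and *KRT1* 1.11 in cow 905. For GLYLC cows the lowest value was separate from the rest for *HNRNPH3* 1299 and *PKIB* 30.05 in cow 42. Values below 4 normalized counts in this list are single reads or a few reads against 0 in the other cows, except *CLEC10A*, which had reads in every cow of its group. None of these cows was removed from the values in the report, and the results that changed without a cow are given there and below.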

How the results depend on the processing

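The count of 231 genes called between HC and LC cows became 134 with no filter on low counts (64 higher and 70 lower), 55 at an adjusted p under 0.05 (27 and 28), 434 with DESeq2 (230 and 204), 92 with log2 assigned reads as a covariate (41 and 51) and 149 as the mean of the CON and GLY contrasts, where 73 were lower. It was 241 with RLE and 242 with upper-quartile normalization, 182 with filterByExpr, 210 with the robust fit, 264 with limma voom (152 higher and 112 lower) and 322 without the treatment covariate. DESeq2 shared 189 genes with the 231, and limma voom 163. Without 1 cow at a time the count ran from 83 to 404, from 47 to 187 for higher and from 36 to 227 for lower genes.

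The CON contrast had 0 called genes with edgeR, 27 with DESeq2 and 4 with limma voom, and 0 to 7 without 1 cow. The GLY contrast had 32, and 66 with RLE, 11 with filterByExpr, 8 with the robust fit, 7 at an adjusted p under 0.05, 143 with DESeq2, 0 with limma voom and 0 with only the GLY cows in the fit. Without 1 cow it was 0 for GLYHC cows 32 and 154 and GLYLC cow 912, 2 to 8 for GLYHC cows 127, 159, 117, 152 and 131, 10 to 11 for CONHC cows 7 and 170 and CONLC cows 60 and 103, 21 for CONHC cow 144, 57 to 83 for CONLC cow 260, GLYHC cow 37 and GLYLC cows 42, 905, 102 and 544, and 119 and 150 for GLYLC cows 209 and 147. The difference between the treatments had 0 called genes, 1 with DESeq2 and 0 without any 1 cow.

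Of 4591 fold changes of 110 named genes under the alternatives, 11 changed sign. With DESeq2 and limma voom, *FABP2* had 0.80 and 0.11, *SLC28A2* 0.23 and 0.10 and *BCO1* 0.97 and 0.39, and *MUC13* had 0.042 with DESeq2. All 4 genes had over 90% of their counts in GLYLC cow 912. *MB*, a muscle gene that was not called, had -0.011 with DESeq2, -0.086 without the treatment covariate, -0.32 without CONHC cow 123 and -0.81 without GLYHC cow 127, its values without 1 cow running from -0.81 to 1.10. For the other changes in counts the cause was not tested. No paired analysis was possible because the cow numbers are unique to each animal and the feeding groups share none.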

Other observations

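Genes of cell division leaned towards HC cows without a call. Of 32 tested genes, 27 had a positive lfc, 11 of them at an unadjusted p under 0.05, 1 had a negative lfc at that level, and 0 were called with edgeR, with a median lfc of 0.44 over all cows, 0.35 in CON and 0.52 in GLY cows. *CENPF*, a kinetochore protein, had an lfc of 0.86 ± 0.35 (adjusted p = 0.253) and *TOP2A*, which untangles chromosomes, 0.75 ± 0.32 (adjusted p = 0.275), while *CDKN1A*, an inhibitor of the cell cycle, had -0.43 ± 0.18 (adjusted p = 0.276).

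Skeletal muscle markers varied between cows of every group. Their summed level ran from 1.04 to 4282.5 CPM in LC and from 2.34 to 2401.9 CPM in HC cows, highest in CONLC cow 166, and 0 of 7 markers were called with edgeR (0 at an unadjusted p under 0.05). *MB*, myoglobin, had a lowest, median and highest normalized count of 3.73, 150.2 and 11210.0 in LC cows and of 8.55, 209 and 8249 in HC cows. The epidermal marker list summed to 0.388 to 1.45 CPM in LC and to 0.510 to 9.22 CPM in HC cows, with GLYHC cow 154 highest. The part of either list in other results was not tested.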
